A study of Mus with 16 samples.

Results

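The effect of an antibody against PD-L1 on gene expression in B16 melanoma tumours was examined across both kinds of mice that received it, namely wild-type (WT) mice and mice without B cells. All 16 RNA-seq libraries of the study took part: 8 from tumours treated with anti-PD-L1 (4 WT and 4 B cell-depleted) were set against 8 from untreated tumours (4 WT and 4 B cell-depleted). Members were chosen by their treatment label alone, and B cell status was adjusted for by giving each of the 4 groups its own coefficient. The value of a gene is the mean of its log2 change in WT mice and its log2 change in B cell-depleted mice, called here the averaged change. This is the main effect of the antibody, and it is large only for a gene that moved the same way in both kinds of mice or strongly in 1 of them.

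All tumours were B16 melanomas, a transplanted mouse melanoma line, grown under the skin of C57BL/6 mice for 7 days. Treated mice then received anti-PD-L1 3 times, 3 days apart, and tumours were removed 3 days after the last dose. The groups were therefore WT untreated, WT treated, depleted untreated and depleted treated, with 1 tumour from each of 4 mice. The text describing the series also mentions an injection of 3M-052 or a control into the tumour, which no sample label carries, so whether any group received it is not known here. The labels describe the B cells as depleted and the columns of the data call the same groups BKO, and the methods describe more than 1 way of removing B cells without saying which was used for these samples. No transcript checks the treatment label, because the antibody binds a protein, and no label gives the untreated mice a control antibody or any mouse its age.

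PD-L1, encoded by Cd274, is a surface ligand that tumour cells and myeloid cells raise in response to interferon gamma, and its receptor PD-1 restrains T cells that have met antigen. Antibodies that block the pair release this restraint, and the released T cells make interferon gamma, which raises antigen presentation and chemokines such as Cxcl9 and Cxcl10 in the cells around them. B16 tumours hold few T cells and little MHC class I and are known to respond weakly to blockade of this pathway. Each library came from a whole tumour, so fewer cells of a type and less RNA per cell cannot be told apart in any of the values.

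Depth ran from 12544573 to 35647409 counts per library. The mean difference of treated minus untreated libraries, averaged over B cell status, was -469779 counts (exact permutation p = 0.884, two-sided). The listed gene lengths are whole gene spans and no source used here names the counter. A gene that overlaps another on either strand may therefore share its reads. Igkc, the kappa light chain of antibodies, had 39 counts in WT untreated and 26 in WT treated tumours and 0 in both depleted groups, and WT untreated library C, at 1.42 CPM (counts scaled to a library total of 1000000), held most of the former (0.0316 to 0.191 in the other 3). Other B cell genes did not separate the kinds of mice. Cd79a, a chain of the B cell receptor complex, was at 0.748 to 0.994 CPM in WT untreated and 0.447 to 1.04 in depleted untreated libraries, and Cd22 was at 0.633 to 1.39 and 1.42 to 3.08. Depleted untreated library B stood apart from the rest of its group. The slope of its log2 levels on the GC content of genes was -0.72 log2 units per 10 percentage points, against -0.10 to 0.32 in the other 3 libraries of that group and -0.46 to 0.25 in the other groups. The counts of called genes are therefore given with and without it, as are many of the results that depend on it.

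Averaged over B cell status, no gene was called changed by anti-PD-L1. At an adjusted p under 0.05 the quasi-likelihood test of edgeR called 0 of 19340 tested genes (0%), and the lowest adjusted p was 0.926. At an unadjusted p under 0.05 it found 824 genes (4.26%), of which 334 were higher (1.73%) and 490 lower (2.53%) in treated tumours, where 967 would be expected with no effect in any gene. DESeq2, limma with voom and limma on the log2 values of the authors also called 0 genes with all 16 libraries. The design measured most genes closely enough to bound the averaged change. Its standard error (SE) had a median of 0.16 on the log2 scale, and the 95% interval lay within 2-fold in either direction in 17700 genes (91.5%) and within 1.5-fold in 12547 (64.9%). Of the 16207 genes with a mean of at least 1 CPM, 97.1% were bounded within 2-fold.

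The averaged changes were smaller than those in each kind of mouse. The median size of the averaged log2 change was 0.12, against 0.31 in WT and 0.21 in depleted mice. A log2 change beyond 1 in either direction was fitted for 41 genes in the average, 787 in WT and 543 in depleted mice. In WT mice alone 5112 genes (26.4%) had an unadjusted p under 0.05 and in depleted mice alone 2017 (10.4%). Adjustment left 1 called gene (0.00517%) and 13 (0.0672%). The groups share an estimate of the spread, and without depleted untreated library B 4123 genes (21%) were called in WT mice. Of the variance of log2 CPM between libraries, summed over all tested genes, treatment took up 5.06%, B cell status 10.5% and the interaction of both 16.9%. A contrast of 1 degree of freedom takes 6.67% by chance. Genes that vary more weigh more in these shares.

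The log2 changes in the 2 kinds of mice ran against each other. Across the 19340 genes Pearson's r between them was -0.53 and Spearman's rho -0.55, and 28.9% of genes had the same sign in both. Without depleted untreated library B, r was -0.20. These are descriptions across genes, which are not independent replicates, and the 2 sets of changes share no library. The difference itself, depleted minus WT, was called for 1474 genes (7.62%) by edgeR, 918 of them with the higher change in depleted mice (4.75%) and 556 with the lower (2.87%). Leaving out 1 library moved this count to between 281 (WT untreated C) and 3890 (depleted untreated D).

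**Figure D1:**
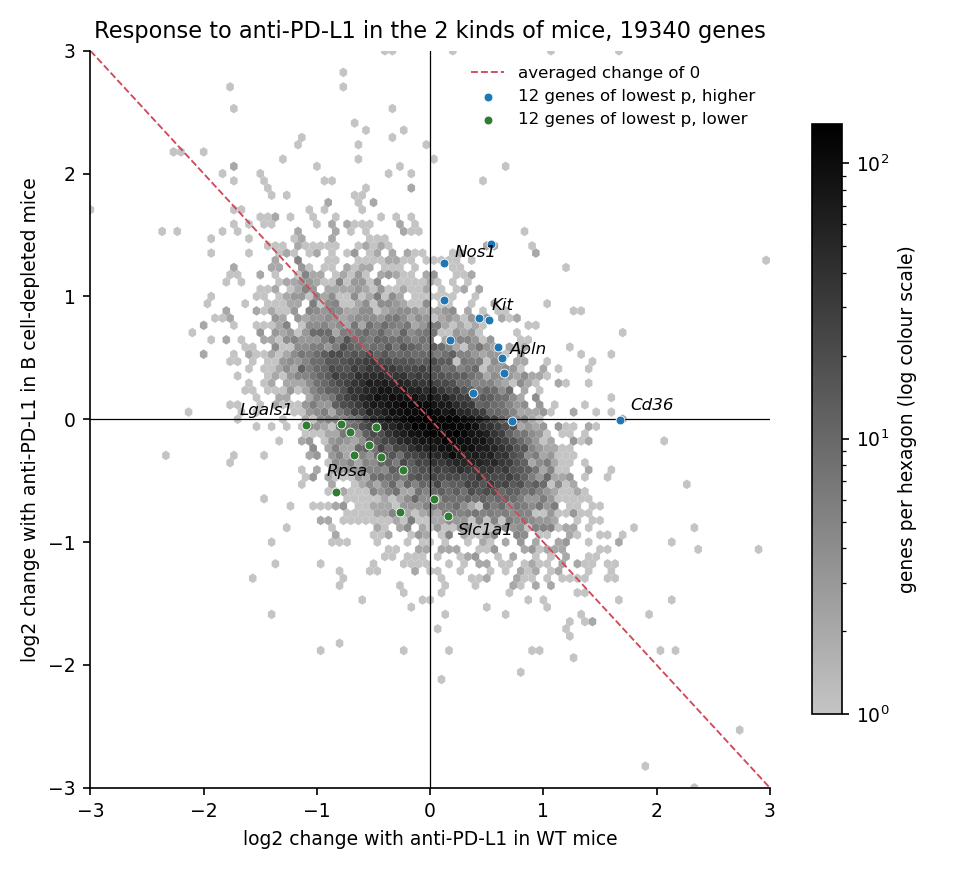
Log2 change with anti-PD-L1 in WT mice (x axis) against that in B cell-depleted mice (y axis) for 19340 genes, shown as hexagons shaded by the number of genes on a log scale, with genes beyond the axes drawn at the edge. The cloud leans along the dashed line of an averaged change of 0 (r = -0.53), and the 24 marked genes of lowest p in the averaged contrast lie off that line toward the upper right and lower left.

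Separation of the libraries gave the same picture. In WT mice the 4 treated libraries all lay above the 4 untreated ones in 2854 genes (14.8%) and all below in 3175 (16.4%), and in depleted mice in 504 (2.61%) and 432 (2.23%). In 356 genes (1.84%) the libraries separated in both kinds of mice but in opposite directions, 132 (0.683%) being higher in WT and lower in depleted treated tumours and 224 (1.16%) the reverse. Only 1 gene (0.00517%) separated the same way in both, with treated libraries lower. This was Gm20512, an antisense transcript of which 75.8% overlaps Pvrl2, with an averaged log2 change of -0.34 ± 0.09 (SE). In no gene did all 8 treated libraries lie above or below all 8 untreated ones (0% each way). The count of genes that separated the same way depended on depleted untreated library B. Without it 65 genes (0.331%) did so in both kinds of mice, and 379 (1.93%) separated in opposite directions. Among the abundant genes that separated in opposite directions was Pfn1, which encodes the actin-binding protein profilin 1 (log2 change -0.88 in WT and 0.55 in depleted mice). This gene was chosen with its values known.

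The 24 protein-coding genes of lowest p in the averaged contrast, 12 on each side, are given as values, since none passed (adjusted p = 0.926 for each by edgeR). They were drawn from genes with a mean of at least 1 CPM whose span lies inside another gene by no more than 50%. Of the 12 on the higher side, some carried similar values in both kinds of mice. Apln (chromosome X, 48025146 to 48034853, build mm10) encodes apelin, a secreted peptide that acts on endothelial cells and is made at the tips of growing vessels. Its level was 18.01, 17.4, 22.5 and 19.9 CPM in WT untreated libraries A to D and 28.2, 25.2, 27.5 and 36.6 in WT treated ones. In depleted mice it was 23, 17.7, 18.6 and 13.5 CPM untreated and 16.4, 34.5, 25.7 and 32.1 treated. All 4 treated libraries were above the untreated ones in WT mice, while in depleted mice treated library A lay among the untreated ones. The log2 change was 0.59 ± 0.21 in WT and 0.58 ± 0.21 in depleted mice, and the average 0.59 ± 0.15 had a 95% interval of 0.28 to 0.90.

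Kit (chromosome 5, 75574916 to 75656722), the receptor of stem cell factor that melanocytes and mast cells need, was measured at 7.99, 9.58, 9.21 and 9.05 CPM in WT untreated and 16.9, 9.15, 11.4 and 10.9 in WT treated libraries. Depleted untreated libraries had 8.89, 6.57, 5.64 and 7.53 CPM and treated ones 8.13, 16.9, 12.4 and 12.9. Treated libraries reached higher in both kinds of mice, with 1 treated library of each inside the untreated range. Its averaged log2 change was 0.63 ± 0.16, made of 0.43 in WT and 0.82 in depleted mice. Other genes on the higher side with values of the same sign in both were Frs2, an adaptor protein of fibroblast growth factor receptors (0.38 in WT, 0.21 in depleted mice), Eya4, a phosphatase and transcriptional co-activator (0.65 and 0.37), and the zinc finger genes Zfp871 (0.52 and 0.81) and Zfp445 (0.64 and 0.50).

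For the rest of the higher side the value came mainly from 1 kind of mouse. Cd36 (chromosome 5, 17781690 to 17888959), a scavenger receptor that takes up fatty acids, had 3.10, 2.53, 3.48 and 1.83 CPM in WT untreated and 10.4, 8.43, 11.2 and 4.91 in WT treated libraries. In depleted mice it had 3.94, 4.72, 3.14 and 2.42 CPM untreated and 3.40, 5.597, 2.39 and 2.56 treated. WT treated libraries were all above the WT untreated ones, and the depleted groups overlapped. The averaged log2 change of 0.84 ± 0.22 was made of 1.68 ± 0.31 in WT and -0.0064 ± 0.32 in depleted mice, and the difference between the kinds of mice was called (adjusted p = 0.037, edgeR). Iqgap2, a scaffold protein of the cytoskeleton, behaved alike (0.73 in WT and -0.02 in depleted mice, adjusted p = 0.042 for the difference). In contrast, Nos1, the neuronal nitric oxide synthase, had 0.12 in WT and 1.27 in depleted mice, and 2900092C05Rik had 0.13 and 0.97. The differences of these 2 genes were not called (adjusted p = 0.092 and 0.074, edgeR). AC154271.1 had 0.53 and 1.43, with depleted treated library D at 0.534 CPM against 2.12 to 2.29 in the other 3.

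Cd28 (chromosome 1, 60716800 to 60773359), the co-stimulatory receptor that PD-1 acts on in T cells, was the gene of lowest p on the T cell list. It was read far above the defining T cell genes, with Cd3d, Cd3e and Cd3g at 0 to 0.374 CPM, so its counts cannot be taken as a measure of T cells. Its level was 10.9 to 12.9 CPM in WT untreated and 10.99 to 16.2 in WT treated libraries. In depleted untreated libraries it had 9.64, 8.29, 7.24 and 9.43 CPM and in treated ones 9.71, 15.02, 15.4 and 13.8. The depleted groups did not overlap, though treated library A was barely above the highest untreated one. The averaged log2 change was 0.41 ± 0.12, with 0.17 in WT and 0.65 in depleted mice.

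**Figure D2:**
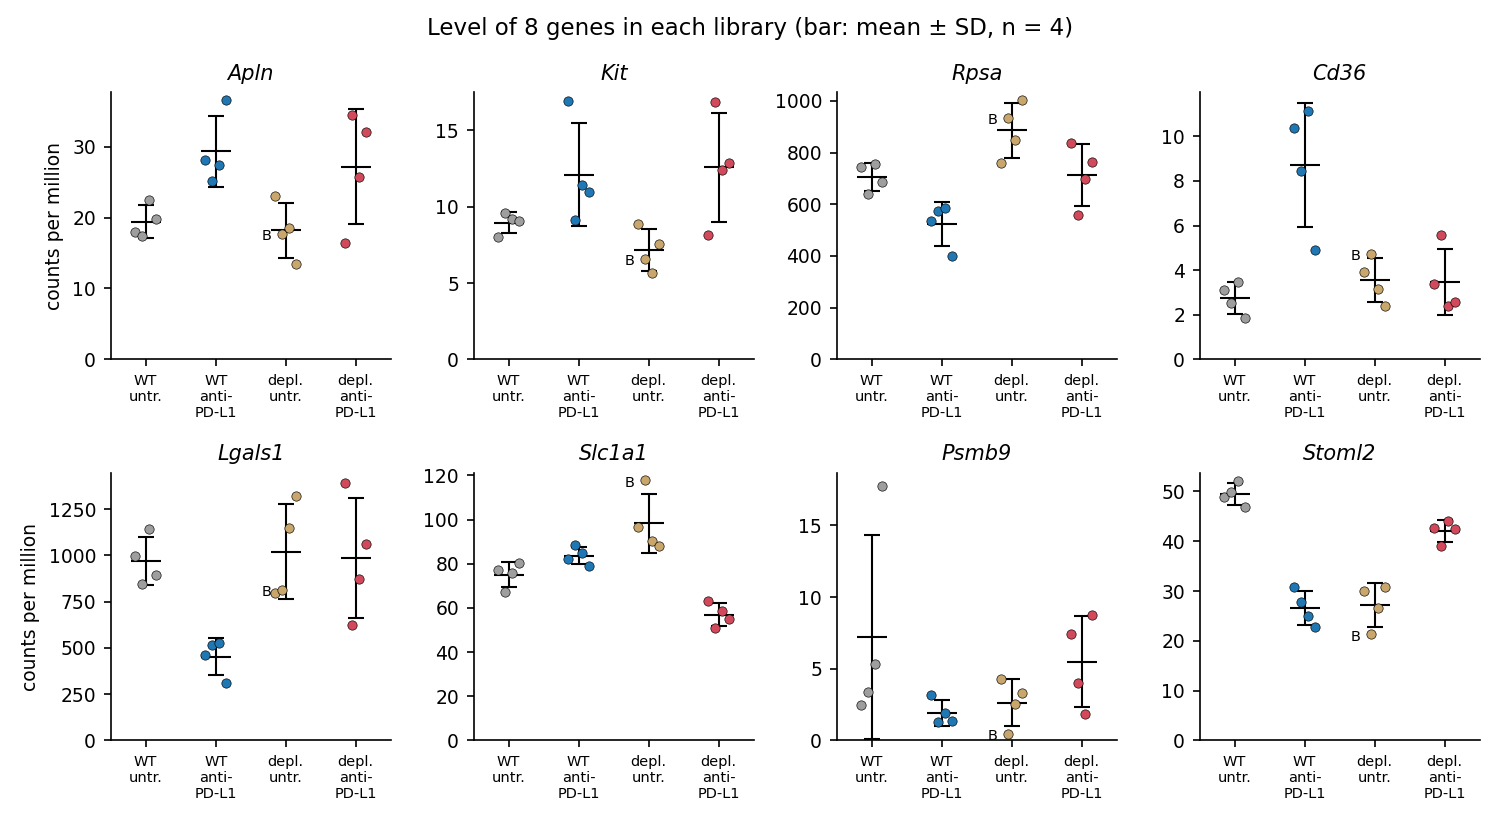
CPM (y axis, linear) of 8 genes in each of the 16 libraries by group, with bars for the mean ± SD (n = 4) and depleted untreated library B marked. Apln, Kit and Rpsa lean the same way in both kinds of mice, Cd36, Lgals1 and Slc1a1 in 1 kind, and Stoml2 in opposite directions, with treated libraries at 22.7 to 30.8 in WT and 38.9 to 44.1 in depleted mice.

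On the lower side, Rpsa (chromosome 9, 120127766 to 120132369), a protein of the small ribosomal subunit that also serves as a laminin receptor, had values of the same sign in both kinds of mice. WT untreated libraries had 746, 640, 756 and 684 CPM and WT treated ones 534, 575, 587 and 398. Depleted untreated libraries had 761, 933, 847 and 1004 CPM and treated ones 838, 557, 699 and 764. The WT groups did not overlap, and in depleted mice 2 of 4 treated libraries were above the lowest untreated one. The averaged log2 change was -0.37 ± 0.11 (95% interval -0.59 to -0.15), with -0.43 in WT and -0.31 in depleted mice. Hrct1 (-0.83 and -0.59), the hydrolase gene Nudt14 (-0.24 and -0.41), the zinc finger gene Zfp575 (-0.26 and -0.75), Park2, which encodes the ubiquitin ligase parkin (-0.67 and -0.29), and AI413582 (-0.54 and -0.21) also had values below 0 in both.

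Lgals1 (chromosome 15, 78926725 to 78930465) encodes galectin-1, a secreted lectin known to induce death of activated T cells. It stood at 998, 847, 1141 and 892 CPM in WT untreated and 461, 516, 524 and 309 in WT treated libraries. In depleted untreated libraries it had 798, 813, 1146 and 1318 CPM and in treated ones 1391, 621, 874 and 1062. All WT treated libraries were below all WT untreated ones, and the depleted groups overlapped. The averaged log2 change was -0.57 ± 0.16, made of -1.10 ± 0.23 in WT and -0.05 ± 0.23 in depleted mice (adjusted p = 0.054 for the difference, edgeR). The mitochondrial genes Mpv17l2 (-0.78 and -0.04), Tmem14c, a carrier in haem synthesis (-0.71 and -0.11), and Mcat, an enzyme of mitochondrial fatty acid synthesis (-0.48 and -0.06), likewise had the larger values in WT mice, and their differences between the kinds of mice were not called.

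Slc1a1 (chromosome 19, 28835049 to 28913960, with 23.9% of its span in AC163993.1), a transporter of glutamate and cysteine, was the reverse case. It had 77.01, 67.1, 76.0 and 80.4 CPM in WT untreated and 82.3, 88.4, 84.8 and 79.1 in WT treated libraries, and 96.7, 118, 90.5 and 88.0 in depleted untreated against 63.0, 51.1, 58.5 and 55.2 in depleted treated ones. The depleted groups were far apart and the WT groups overlapped. The log2 change was 0.16 ± 0.12 in WT and -0.79 ± 0.12 in depleted mice, a called difference (adjusted p = 0.011, edgeR), and the averaged value of -0.32 ± 0.08 combines values of opposite sign. On the authors' log2 values the averaged change of Slc1a1 was 0.20, and those of Park2 (0.0886) and 2900092C05Rik (-0.026) also had the other sign. Nsmce1, a subunit of the SMC5/6 DNA repair complex, followed the same pattern (0.03 and -0.65, adjusted p = 0.031). Thus 4 of the 24 genes of lowest averaged p, namely Cd36, Iqgap2, Slc1a1 and Nsmce1, were themselves called for a difference between the kinds of mice (background 7.62%).

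Genes that respond to interferon gamma had an averaged change near 0, and that value rested on 1 library. Of the 22 genes on this list, all tested, 0 had an averaged p under 0.05 in either direction (background 1.73% higher and 2.53% lower). The median averaged log2 change was 0.09, against -0.01 over all genes. In WT mice 1 of the 22 had a value above 0 (median -0.64), and in depleted mice 20 (median 0.86). WT untreated library D was far above the other untreated tumours. Tgtp1, an interferon-induced GTPase, had 0.727, 1.67, 0.916 and 28.9 CPM in WT untreated libraries A to D and 3.93, 0.276, 0.844 and 4.91 in WT treated ones. Depleted untreated libraries had 1.28, 0.128, 0.847 and 1.03 CPM and depleted treated ones 7.11, 4.12, 0.385 and 8.32. The WT groups overlapped, and apart from library D the highest levels were in treated libraries of both kinds of mice.

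With WT untreated library D left out, the median of the list in WT mice was 0.58 instead of -0.64, and 17 of the 22 genes were above 0. The averaged median was then 0.73. Of the 22 genes, 12 had an averaged p under 0.05 on the higher side (background 1.88%) and 0 on the lower (background 2.24%). In all, edgeR called 0 genes (0%). Library D was picked after its high levels of these same genes were seen, so higher values without it follow from that choice. With any other library left out, the averaged median lay between -0.05 and 0.24 and 0 of the 22 were at p under 0.05. The list in depleted mice had medians of 0.68 to 1.17 whichever library was left out. The sign in WT mice thus depended on library D, and the source of its high levels was not tested. Of single genes, Gbp2, a guanylate-binding protein, had 2.29, 5.23, 3.48 and 51.3 CPM in WT untreated and 9.55, 1.93, 3.87 and 8.16 in WT treated libraries, so that library D was again apart. Socs1, the feedback inhibitor of interferon signalling, was the 1 gene of the list whose difference between the kinds of mice was called (-1.26 in WT and 1.64 in depleted mice, adjusted p = 0.019, edgeR).

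Values of opposite sign in the 2 kinds of mice were found for 15 of 18 MHC class I and 6 of 8 class II presentation genes. Only 28.9% of all tested genes had the same sign, so opposite signs were not particular to these lists. Of 18 MHC class I presentation genes, 4 had values above 0 in WT (median -0.55) and 15 in depleted mice (median 0.37), with an averaged median of -0.12 and 0 genes at p under 0.05 on either side. Without WT untreated library D the WT median was -0.38. Psmb9, a subunit of the immunoproteasome, which cuts the peptides that MHC class I presents, had 2.49, 3.35, 5.36 and 17.8 CPM in WT untreated and 3.17, 1.27, 1.88 and 1.34 in WT treated libraries. In depleted untreated libraries it had 4.29, 0.447, 2.54 and 3.28 CPM and in treated ones 7.42, 4.00, 1.81 and 8.74. The groups overlapped in both kinds of mice. WT untreated library D was the highest of all 16 and depleted untreated library B the lowest. Only H2-T23, a non-classical class I gene that lies wholly within A930015D03Rik, was called for the difference (-1.21 and 0.47, adjusted p = 0.042, edgeR). Of 8 tested MHC class II genes, 1 was above 0 in WT (median -1.10) and 7 in depleted mice (median 0.89), with an averaged median of -0.08. Without WT untreated library D the WT median was -0.11 and the averaged median 0.38, and without depleted untreated library B the averaged median was -0.26. Cd74, their invariant chain, had 4.55, 15.5, 13.3 and 56.0 CPM in WT untreated and 14.9, 4.78, 9.13 and 6.14 in WT treated libraries. H2-DMb1, which helps to load their peptides, had the lowest averaged p (-0.47 ± 0.23).

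Genes of the type I interferon response had medians of the same sign in both kinds of mice. The median log2 change was 0.20 in WT, 0.24 in depleted mice and 0.18 in the average, and 11 of 18 were above 0 in WT and 13 in depleted mice. Of single genes, 12 of the 18 had opposite signs in the 2 kinds of mice. This is near the background, since 28.9% of all tested genes had the same sign. The RNA sensors Ddx58, which encodes RIG-I, and Ifih1, which encodes MDA5, were the 2 with an averaged p under 0.05 on the higher side, against a background of 1.73%, and 0 were on the lower side. Ddx58 had 5.20 to 7.83 CPM in WT untreated, 8.90 to 13.9 in WT treated, 7.19 to 9.44 in depleted untreated and 7.46 to 13.5 in depleted treated libraries. The WT groups did not overlap and the depleted groups did. Its averaged log2 change was 0.46 ± 0.15 and that of Ifih1 0.49 ± 0.20 (adjusted p = 0.926 for both, edgeR).

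**Figure D3:**
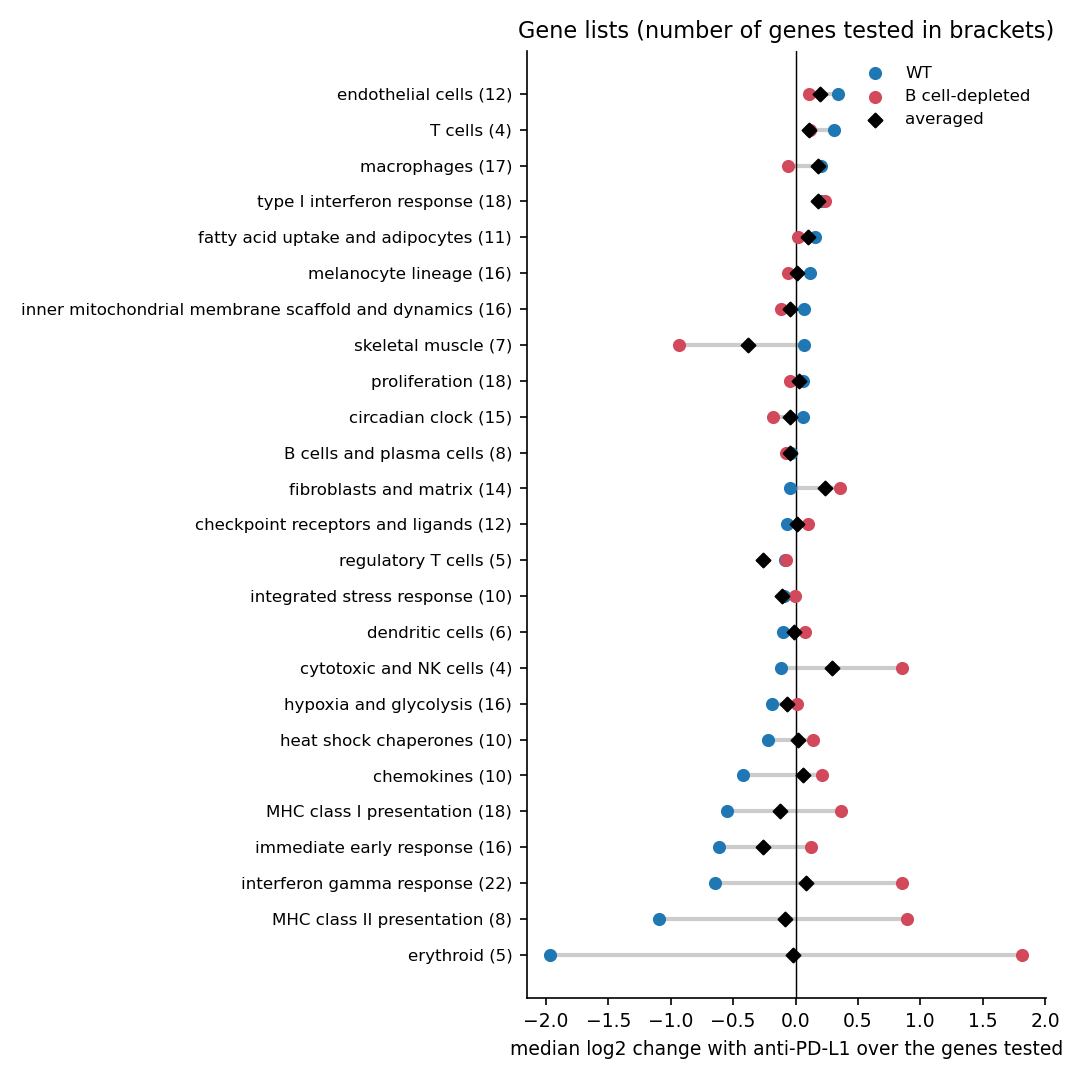
Median log2 change with anti-PD-L1 (x axis) over the tested genes of each of 25 lists (y axis, number of genes in brackets) in WT mice, in B cell-depleted mice and averaged. The interferon gamma response (-0.64 and 0.86), MHC class II (-1.10 and 0.89) and erythroid lists (-1.97 and 1.81) lie far apart in the kinds of mice and near 0 in the average. The WT value of the interferon gamma list is 0.58 and that of MHC class II -0.11 without WT untreated library D.

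T cells were too sparsely read to measure the effect of the antibody on them. Of 18 T cell genes 4 could be tested, with a median averaged log2 change of 0.11 and Cd28 alone at p under 0.05 (background 4.26%). Of 14 genes of cytotoxic and NK cells 4 could be tested, with a median of 0.29 and 0 at p under 0.05. Cd8a, a chain of the CD8 co-receptor, had 7 counts in the 8 untreated and 23 in the 8 treated libraries, which came from few libraries: 6 of 7 were in WT untreated D, and depleted treated D held 8. Cd3e had 46 and 23 counts, and Ifng, which encodes interferon gamma, 6 and 8. Of the tested genes Eomes, a transcription factor of cytotoxic T and NK cells, had an averaged log2 change of 0.60 ± 0.35 with 0.0035 in WT and 1.19 in depleted mice. Depleted untreated library B had 0.8294 CPM of Eomes against 0.230 to 0.282 in the other 3, and without it the averaged change was 0.85 and that in depleted mice 1.70.

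Among checkpoint genes, 12 of 17 could be tested and 0 had an averaged p under 0.05 (background 4.26%), with a median averaged log2 change of 0.01. Cd274, which encodes the antibody's target, had 4.02 to 7.74 CPM in WT untreated, 4.83 to 8.88 in WT treated, 4.61 to 6.06 in depleted untreated and 5.46 to 11.8 in depleted treated libraries. Treated and untreated libraries overlapped in both kinds of mice. The averaged log2 change was 0.32 ± 0.19 (95% interval -0.08 to 0.73), with 0.06 in WT and 0.59 in depleted mice. Lag3, an inhibitory receptor of T cells, was read at 0 to 0.796 CPM, and its averaged change of -0.12 ± 0.37 had an interval of -0.91 to 0.66. Ido2, an enzyme of tryptophan breakdown, had -0.17 ± 0.30 (interval -0.79 to 0.46). The signs of Lag3 and Ido2 turned with the method. Tigit, another inhibitory receptor, had 13 counts in untreated and 25 in treated libraries and was not tested.

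Genes of inflammation and of regulatory T cells that the study names were not called for the averaged change where they could be tested. For most of these genes the study compared mice without B cells with WT mice, and it measured CCL5 and VEGF as protein. The averaged change does not address those comparisons. Nlrp10, a member of the NLR family of innate immune receptors, had -0.30 ± 0.26, the chemokine gene Ccl5 -0.31 ± 0.31, the vascular growth factor gene Vegfa -0.06 ± 0.14, and Cd40, the receptor through which T cells activate antigen-presenting cells, 0.14 ± 0.36. Il1rl1, which encodes the receptor of IL-33, had 8 counts in WT untreated, 14 in WT treated, 29 in depleted untreated and 20 in depleted treated libraries. Cxcl13, a chemokine that attracts B cells, had 2 in untreated and 6 in treated libraries. Il1rl1 and Cxcl13 were too sparsely read to be tested. Foxp3, the defining factor of regulatory T cells, lies wholly within the span of Ppp1r3f, so its averaged value of -0.26 ± 0.12 (0.05 in WT, -0.56 in depleted mice) cannot be assigned to it. Of the 8 genes on the regulatory T cell list 5 were tested, and Foxp3 was the 1 at an unadjusted p under 0.05, on the lower side (background 2.53%).

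Other cell types of the tumour were measured with more counts. Of 17 macrophage genes 0 had an averaged p under 0.05. Their median was 0.18, with 13 above 0 in WT and 8 in depleted mice, and Apoe, an apolipoprotein that macrophages secrete, was called for the difference (-0.96 in WT, 0.43 in depleted mice, adjusted p = 0.031, edgeR). Apoe was read at 304 to 1072 CPM, far above Csf1r (9.43 to 18.7) and C1qa (1.72 to 26.9) of the same list. Its counts therefore cannot be taken as a measure of macrophages. Mrc1, the mannose receptor of macrophages, had 0.62 ± 0.40. Of 12 endothelial genes 1 had an averaged p under 0.05, on the higher side (background 1.73%). This was Tek, which encodes the angiopoietin receptor Tie2 (0.44 ± 0.18, with 0.71 in WT and 0.18 in depleted mice), and the median of the list was 0.20. Depleted untreated library B had 14.04 CPM of Tek against 6.04 to 6.52 in the other 3, and without it the averaged change was 0.63 ± 0.13, with 0.56 in depleted mice. Of 14 fibroblast and matrix genes 6 were above 0 in WT and 13 in depleted mice, with an averaged median of 0.24 and 0 at p under 0.05. The 16 melanocyte genes had a median of 0.01, with values from -0.19 to 0.37, and 0 at p under 0.05. Among 14 genes of fatty acid uptake and adipocytes 11 were tested and 4 had an averaged p under 0.05, all higher (background 1.73%). Without depleted untreated library B 2 of 11 were, against a background of 11.8%. The 4 were Cd36, the lipase gene Lpl (0.52 ± 0.18, with 1.43 in WT and -0.39 in depleted mice), the carrier gene Fabp4 (0.56 ± 0.26) and Cfd, which encodes adipsin. Cfd had 0 to 4.62 CPM with 5 of 16 libraries at 0, and the defining adipocyte gene Adipoq had 23 counts in untreated and 25 in treated libraries.

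Genes of the tumour's state had small averages as well. Of 18 proliferation genes 1 had an averaged p under 0.05 (background 4.26%), Mki67 (0.28 ± 0.12, with 0.56 in WT and 0.00044 in depleted mice), and the median was 0.03. Top2a, Aurkb and Plk1 were called for the difference (3 of 18, background 7.62%), Top2a with the higher value in WT mice (0.50 and -0.34) and Aurkb (-0.41 and 0.24) and Plk1 (-0.56 and 0.47) with the lower. Of 16 hypoxia and glycolysis genes Ldha, the lactate dehydrogenase of glycolytic tissue, was the 1 at p under 0.05 (-0.24 ± 0.10), on the lower side (background 2.53%). Immediate early genes had an averaged median of -0.26 with 0 of 16 at p under 0.05, and 3 were called for the difference (background 7.62%): Ier2 (-0.95 in WT, 0.46 in depleted mice), Ier3 (-1.02 and 0.29) and Dusp1 (-0.92 and 0.38). Of 16 genes that build or remodel the inner mitochondrial membrane, Phb (-0.25 ± 0.11) and Chchd6 (-0.17 ± 0.08) had an averaged p under 0.05. They were on the lower side, against a background of 2.53%. The difference between the kinds of mice was called for 5 of the 16 (background 7.62%). Stoml2, a membrane scaffold protein, had 46.9 to 52.2 CPM in WT untreated, 22.7 to 30.8 in WT treated, 21.3 to 30.9 in depleted untreated and 38.9 to 44.1 in depleted treated libraries. The groups were fully separate in both kinds of mice and in opposite directions (log2 change -0.89 and 0.63, averaged -0.13 ± 0.09).

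Markers of blood and of muscle differed among libraries too. All 5 tested erythroid genes had values below 0 in WT (median -1.97) and above 0 in depleted mice (median 1.81), and 3 of them were called for the difference (background 7.62%), Hba-a1, Hba-a2 and Alas2. Hba-a1 had 751, 155, 141 and 60.0 CPM in WT untreated libraries A to D. Without library A the averaged median of the list was 0.59 instead of -0.02, with 2 of 5 at p under 0.05 on the higher side (background 1.21%). Library A was picked by its high levels of these same genes, so higher values without it follow from that choice. Near-identical globin genes may share reads, and Alas2 lies wholly within Apex2. Summed erythroid levels ran from 191 to 2633 CPM in WT untreated, 126 to 399 in WT treated, 99.9 to 192 in depleted untreated and 241 to 1265 in depleted treated libraries. Of 7 tested skeletal muscle genes, 4 were above 0 in WT and 0 in depleted mice, with an averaged median of -0.38 and 2 at p under 0.05, both lower (background 2.53%). Without depleted untreated library B, 11 were tested, with an averaged median of -0.55 and 4 at p under 0.05 on the lower side (background 9.84%). With all libraries the 2 were the fast myosin light chain gene Mylpf (-0.62 ± 0.21) and Xirp2, a protein of muscle attachments (-1.002 ± 0.42). Xirp2 was at 3.32 and 2.30 CPM in depleted untreated libraries C and D and at 0.221 to 0.632 in the other 14. The part of blood or muscle in the other results was not tested.

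The remaining lists had few genes at p under 0.05. Of 10 tested chemokine genes 1 was on the higher side, Ccl2 (0.48 ± 0.21, wholly within Gm17268), and of 10 genes of the integrated stress response 1, Slc7a11, the cystine importer (0.32 ± 0.12), against a background of 1.73%. None was at p under 0.05 among 8 B cell, 6 dendritic cell, 10 heat shock and 15 circadian clock genes, whose medians were -0.05, -0.01, 0.02 and -0.04. The genes of lowest p on these lists were Cd22 (-0.51 ± 0.29), Ccr7 (0.67 ± 0.46), Hspa1a (0.26 ± 0.27, with 75.3% of its span in Gm20481) and Per1 (-0.22 ± 0.15). A single neutrophil gene, Csf3r (-0.16 ± 0.47), and a single keratinocyte gene, Trp63 (-0.26 ± 0.23), could be tested. Ednrb, the endothelin receptor of melanocytes, had 0.37 ± 0.24, and Pdgfra, a growth factor receptor of fibroblasts, 0.35 ± 0.21.

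Leaving out depleted untreated library B altered the averaged result. Among 19637 genes then tested, 4257 (21.7%) had an unadjusted p under 0.05, 2325 higher (11.8%) and 1932 lower (9.84%), while edgeR called 1 gene (0.00509%) and the lowest adjusted p was 0.042. DESeq2 called 1134 genes without that library, 656 higher and 478 lower, and limma with voom 1. Pearson's r between the changes in the 2 kinds of mice went from -0.53 to -0.20, and 46.9% of genes had the same sign. The libraries separated in the same direction in both kinds of mice in 65 genes (0.331%), 32 higher and 33 lower, and in opposite directions in 379 (1.93%). All 8 treated libraries lay above the 7 untreated ones in 4 genes (0.0204%) and below them in 7 (0.0356%). The difference between the kinds of mice was called for 1604 genes (8.17%) without it. The WT contrast, which holds no depleted library, went from 1 to 4123 called genes (21%), since all 4 groups share an estimate of the spread.

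The gene called without library B by edgeR and by voom was Metrn (chromosome 17, 25794571 to 25797136), which encodes meteorin, a secreted factor of glia and neurons. Of its span 87.4% overlaps AC159277.1, so its reads cannot be assigned to it alone. WT untreated libraries had 426, 393, 366 and 350 CPM and WT treated ones 239, 263, 245 and 261. Depleted untreated libraries A, C and D had 428, 433 and 499 CPM, library B 190, and treated ones 339, 298, 343 and 362. Without library B the treated libraries were below the untreated ones in both kinds of mice, and library B was below every other library. The averaged log2 change was -0.52 ± 0.08 without library B (-0.61 in WT and -0.43 in depleted mice) and -0.41 ± 0.14 with it (adjusted p = 0.926, edgeR). Tlr3, a sensor of double-stranded RNA, was among the genes of lowest p on the higher side without library B, chosen after that library was seen to stand apart. It had 4.53 to 5.51 CPM in WT untreated, 7.65 to 16.4 in WT treated, 3.71 to 6.87 in depleted untreated libraries A, C and D and 6.49 to 7.82 in depleted treated libraries, and 14.7 in library B. Its averaged log2 change was 0.81 ± 0.16 without and 0.54 ± 0.23 with library B.

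Without library B the averaged changes were 0.59 for Apln, 0.61 for Kit, 0.92 for Cd36, -0.36 for Rpsa and -0.62 for Lgals1. The interferon gamma list had medians of -0.65 in WT and 0.72 in depleted mice. Of the 16 immediate early genes, 8 had an averaged p under 0.05 on the lower side without library B (background 9.84%) and 0 with it. Of 18 proliferation genes, 6 were at p under 0.05 on the higher side without it (background 11.8%) and 1 with it. On the higher and lower sides, where backgrounds were 11.8% and 9.84%, further lists also moved without library B. Of 16 melanocyte genes 3 and 1 were at p under 0.05, and of 18 MHC class I genes 2 and 2. Inner mitochondrial membrane genes had 4 and 4 of 16, endothelial genes 2 and 1 of 12, and hypoxia genes 0 and 3 of 16. Type I interferon genes had 3 and 0 of 18, and circadian clock genes 3 and 1 of 15.

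The GC dependence of a library moved with these counts. WT untreated libraries had slopes of 0.14 to 0.25 and WT treated ones of -0.46 to -0.09, without overlap. Depleted untreated libraries had 0.29, -0.72, -0.10 and 0.32 (A to D) and depleted treated ones -0.04, 0.06, 0.20 and 0.22. Averaged over B cell status, treated minus untreated was -0.13 (exact permutation test within each kind of mouse, 4900 arrangements, two-sided p = 0.406). The change in depleted minus that in WT mice was 0.59 (exact p = 0.035). Without library B the averaged difference was -0.25. Genes of the averaged contrast were split by GC content on both counts. Against a median of 46.4% over all tested genes, the 334 genes at p under 0.05 on the higher side had a median GC content of 43.7% and the 490 on the lower side 50.9%, and without library B these were 41.0% and 52.1%.

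**Figure D4:**
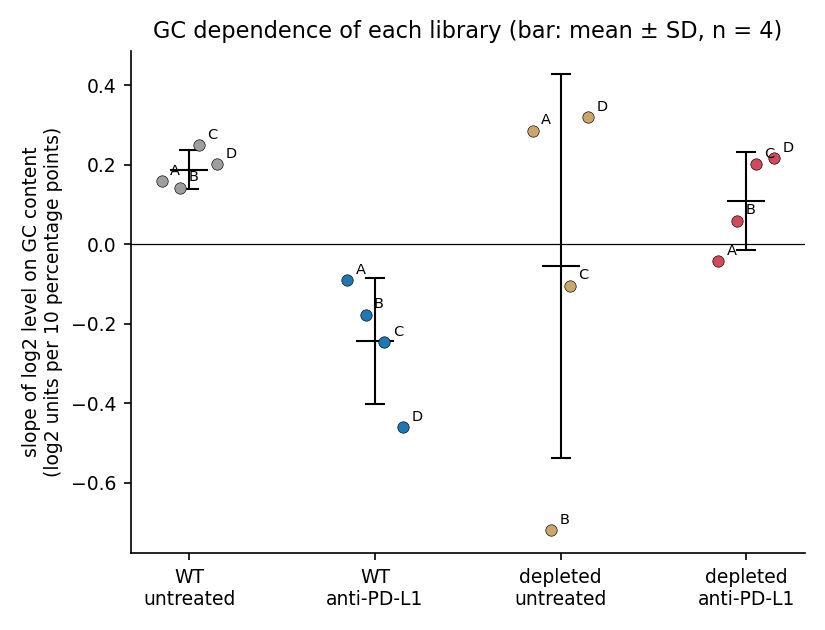
Slope of log2 level on GC content (y axis, log2 units per 10 percentage points) for each library, lettered A to D, by group, with bars for the mean ± SD (n = 4). WT treated libraries all lie below WT untreated ones, and depleted untreated library B, at -0.72, is the lowest of the 16.

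With the slope as a covariate and all 16 libraries, edgeR called 0 genes in the averaged contrast (1534 at an unadjusted p under 0.05, 7.93%) and 176 for the difference between the kinds of mice, and r between their changes was -0.28. With the slope as a covariate and without library B, 885 genes (4.51%) had an unadjusted averaged p under 0.05, edgeR called 0 and DESeq2 3 of the genes, against 1134 by DESeq2 without the covariate. The 3 were Metrn, Lrrc66 and Kit, with Metrn at -0.49 and Kit at 0.92. The slope is made from the same counts, so biology that goes with GC content is taken up by it too, and the source of the slope was not tested.

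**Figure D5:**
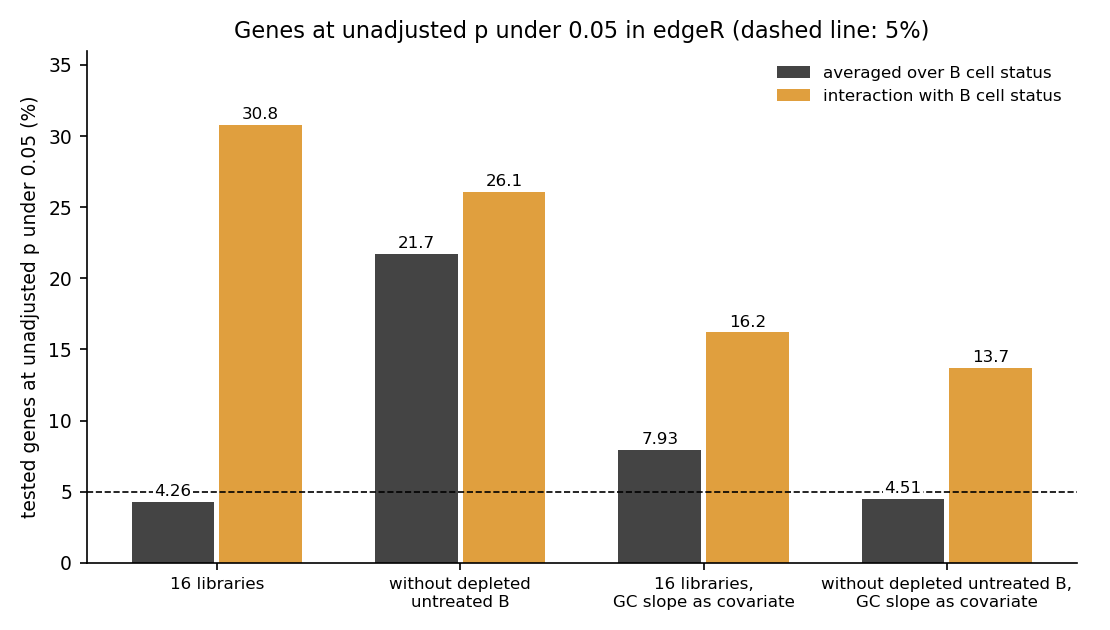
Percentage of tested genes at an unadjusted p under 0.05 (y axis, from 0) in edgeR for the averaged change and for the difference between the kinds of mice, under 4 settings, with the dashed line at 5%. The averaged share is 4.26% with 16 libraries, 21.7% without depleted untreated library B and 4.51% once the GC slope is also a covariate, while the share for the difference stays between 13.7% and 30.8%.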

How the data were processed

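Per the labels, total RNA of whole tumours was made into libraries for Ion sequencers, after removal of ribosomal RNA per the methods. The authors deposited raw read counts per gene on build mm10. No source used here names the counter. The listed lengths equal whole gene spans, introns included. With strand left aside, 14522 of 38087 genes (38.1%) overlap another. A second table, deposited by the authors, holds log2 values that they normalized (the labels name DESeq, with no version). It was used in 1 alternative only (25934 genes), and 13 of its cells and 25 symbols were damaged by a spreadsheet. Further per-library columns (32), the authors' comparison tables, which hold fold changes and p-values, and their enrichment tables were not used.

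Columns carry group names and letters, so libraries were mapped to groups and not to single samples. Depth was 12544573 to 35647409 counts, and counts were tested in R 4.3.3 with edgeR 4.0.16 (TMM, filterByExpr over the 4 groups, robust quasi-likelihood F test, two-sided), with all 16 libraries and 1 coefficient per group. The averaged contrast weights both kinds of mice equally. Benjamini-Hochberg adjustment ran over 19340 genes, with calls at 0.05. SEs and 95% intervals come from the same fit. CPM rest on TMM-scaled library sizes, and 2 was the prior count on the log2 scale. GC content per gene span was deposited by the authors in percent. For each library, log2 CPM centred per gene was regressed on it over genes of at least 1 CPM, which gives the GC slope per 10 percentage points. Alternatives were DESeq2 1.42.0, limma 3.58.1, other scaling and filters, the GC slope as a covariate, an additive fit, and leaving out each library. The fits were tested on simulated data with known changes.

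Named genes were the 12 protein-coding genes of lowest p on each side (at least 1 CPM, overlap up to 50%), since none was called, the genes the study names, and the gene of lowest p on each of 27 lists. The gene this rule gives for 1 list is not reported here. Other genes are examples from the lists. The members, lists and genes were chosen with earlier results of these data known. P-values measure the spread between tumours, as the labels give separate mice.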

Additional observations from a re-analysis of the deposited data

Results flagged for a closer look

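Among 212 sets of 4 libraries, 1 library stood far from the other 3 in 8 of them, where chance gives 10.6, or about 1 in 20. Levels in CPM were 0.534 for AC154271.1 in depleted treated library D (2.12 to 2.29 in the others), 12.6 for Foxp3 in WT untreated C (15.5 to 16.1) and 0.8294 for Eomes in depleted untreated B (0.230 to 0.282). Mrc1 had 4.69 in depleted untreated A (1.47 to 1.98), Ednrb 7.49 in depleted treated B (3.47 to 4.00) and Tek 14.04 in depleted untreated B (6.04 to 6.52). Ldha had 1588 in depleted treated B (2325 to 2476) and Ier3 118 in WT treated B (67.6 to 72.7).

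The log2 change with anti-PD-L1 in depleted mice minus that in WT mice was called by edgeR for 1474 genes. Among the genes of lowest p in the averaged contrast or on a list, 7 were called. The difference was -1.68 for Cd36 (adjusted p = 0.037), -0.74 for Iqgap2 (0.042), -0.94 for Slc1a1 (0.011) and -0.68 for Nsmce1 (0.031). It was 1.68 for H2-T23 (0.042), 1.31 for Ier3 (0.041) and 3.44 for Alas2 (0.035), the last with WT untreated library A far above its group. The GC slope also changed differently in the 2 kinds of mice, by 0.59 log2 units per 10 percentage points (exact permutation p = 0.035).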

How the results depend on the processing

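No paired analysis was possible because the columns carry letters and not the replicate numbers of the labels. The averaged contrast had 0 called genes with RLE scaling, other filters, DESeq2, voom, the authors' log2 values, the GC slope and an additive fit. With 1 library left out it had 0 to 1, namely Metrn without depleted untreated B and Gm15796 (1.15, adjusted p = 0.037, edgeR) without depleted untreated C. Alternatives without depleted untreated B were added after seeing the data. There DESeq2 called 1134 genes, voom 1, the authors' log2 values 1 (Sh3rf3) and DESeq2 with the GC slope 3.

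The difference between the kinds of mice was called for 945 genes without a filter, 3262 by DESeq2, 149 on the authors' log2 values and 176 with the GC slope, and without depleted untreated B for 2626 by DESeq2, 299 on the authors' log2 values, 80 with the GC slope and 566 with both DESeq2 and the slope. Leaving out 1 library gave 281 (WT untreated C) to 3890 (depleted untreated D) and moved the count by over 1.5 times in all but WT treated A, depleted untreated B and depleted treated A. The correlation of the changes was -0.63 over genes of at least 1 CPM, -0.28 with the GC slope and -0.63 to -0.20 with a library left out, and the averaged GC slope difference -0.25 to -0.07.

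Of the values of named genes under alternatives, 1484 had the same sign and no call, 27 were called, all without depleted untreated B, and 20 had the other sign. These were, for Lag3, 0.13 by voom, 0.0921 on the authors' log2 values and 0.36 with the GC slope, and for Ido2 0.31 on the authors' values and 0.17 with the slope. Ccl5 had 0.0752 with the slope. On the authors' values 2900092C05Rik had -0.026, Slc1a1 0.20 and Park2 0.0886, and without depleted untreated B these had -0.034, 0.33 and 0.0375, Cd28 -0.19, Cd40 -0.096 and Alas2 0.0527. With a library left out, Lag3 ran from -0.28 to 0.0425, Vegfa from -0.14 to 0.0163, Cd40 from -0.0158 to 0.37 and Alas2 from -0.55 to 0.31. The causes were not tested. Sparse counts limit T cell genes, and intervals cover the spread between tumours only.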
